A study of Homo sapiens with 5 samples.

Results

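The genes described here are 44 genes of glycolysis and of the response to low oxygen: glycolytic enzymes and lactate dehydrogenase, glucose and lactate transporters, regulators of glycolytic flux, hypoxia-inducible factor (HIF) with its oxygen sensors, and genes that HIF switches on. They were taken by name, as the rows whose gene symbol is on the member list, and all 44 were found among the 58929 genes of the files. The list was made with earlier results of these data known. The samples were 5 libraries of A549, an established human lung adenocarcinoma line, from a study of RBMS1, an RNA-binding protein, in which lines with stable depletion or stable overexpression were made. The design text names them ribosome footprint profiles, in which the mRNA fragments shielded by ribosomes are sequenced. Cells were exposed to cycloheximide at 100 ug/mL for 15 min, and the lysates were digested with RNase I for 5 min before monosome fractions were collected. The molecule label reads total RNA and the protocols also mention an input of fragmented total RNA, so the word footprint rests here on the design text. No low-oxygen treatment is named in the labels for any library.

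The groups were taken from the genotype labels. The sh control (shctrl, RBMS1 knockdown ctrl) was 1 library, RBMS1 knockdown was 2 libraries with a different hairpin each (sh1088 and sh1196), the pCDH control (pcdh, RBMS1 overexpress ctrl) was 1 library, and RBMS1 overexpression (R1A) was 1 library. The labels do not say whether each line was a pool or a clone, nor that the libraries came from separate cultures. The p-values below therefore measure spread among these libraries alone, and that spread may be technical. Overexpression against its control is 1 library against 1 and has no replicate check, and its 95% counting intervals cover counting error only.

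Glycolysis splits glucose into pyruvate in a preparatory phase that spends ATP and a payoff phase that regains it, and lactate dehydrogenase then turns pyruvate into lactate. HIF is a pair of an oxygen-sensitive alpha subunit (HIF1A or EPAS1) and ARNT. With oxygen present the prolyl hydroxylases EGLN1 and EGLN3 mark the alpha subunit for VHL, which directs its destruction, and without oxygen HIF accumulates and switches on most glycolytic enzymes along with genes of vessel growth, acid export and mitophagy. HIF1A is thus controlled mainly at the level of its protein, which footprints do not measure.

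HIF binds DNA at short elements whose core reads ACGTG or, with another leading letter, GCGTG. Of the 44 members, 38 had at least 1 promoter in the RefSeq table for GRCh38.p14, with 66 promoters in all, and SLC2A3, SLC16A1, VHL, VEGFA, BNIP3L and NDRG1 were not matched. In the 250 bases before the start, 40 of the 66 promoters (60.6%) held at least 1 of these cores on either strand, against 43.2% of 35116 promoters of all genes. The difference lay in ACGTG, found in 37.9% of member promoters and 18.5% of all, while GCGTG was found in 33.3% and 32.2%. Some members had several promoters in the table, and 31 of the 38 matched members held a motif in at least 1. The same count per gene was not made over all genes, and a gene with several listed promoters reaches it more easily. Members were listed in part as genes that HIF switches on, so the excess of its core is not independent of that choice. Promoters of 6 members are printed below, 3 from the payoff phase and lactate dehydrogenase and 3 HIF targets, whose values carry much of what follows. They read 5′ to 3′ on the gene's strand, with both cores, read on either strand, in capitals. The LDHA promoter (chr11:18394313-18394562, plus strand) held 5 matches, ENO1 (chr1:8878687-8878936, minus strand) 2 and PGK1 (chrX:78103998-78104247, plus strand) 3. Among the targets, ADM (chr11:10304823-10305072, plus strand) held 1 match, BHLHE40 (chr3:4979187-4979436, plus strand) 4 and ANGPTL4 (chr19:8363905-8364154, plus strand) 1. A CACGTG run counts once on each strand, and a match is a description of letters, not of a bound site. The start used is that of RefSeq, while the gene spans given below are from GENCODE, so a window can lie inside its gene span. LDHA had 2 listed starts, and the window of the first is printed.
LDHA: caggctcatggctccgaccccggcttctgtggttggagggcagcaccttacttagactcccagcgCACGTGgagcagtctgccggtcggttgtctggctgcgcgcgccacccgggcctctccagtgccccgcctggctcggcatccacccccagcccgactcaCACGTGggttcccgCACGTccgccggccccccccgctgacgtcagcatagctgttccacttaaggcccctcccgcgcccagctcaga
ENO1: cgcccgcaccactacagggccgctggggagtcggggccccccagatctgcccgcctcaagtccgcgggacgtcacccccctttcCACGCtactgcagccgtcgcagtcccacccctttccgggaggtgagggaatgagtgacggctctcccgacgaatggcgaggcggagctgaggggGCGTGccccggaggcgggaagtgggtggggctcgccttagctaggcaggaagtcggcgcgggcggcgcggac
PGK1: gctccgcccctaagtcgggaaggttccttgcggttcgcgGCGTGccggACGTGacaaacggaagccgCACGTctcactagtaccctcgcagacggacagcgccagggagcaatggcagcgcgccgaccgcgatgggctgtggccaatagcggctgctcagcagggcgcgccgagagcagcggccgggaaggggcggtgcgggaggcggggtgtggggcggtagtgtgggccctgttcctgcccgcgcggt
ADM: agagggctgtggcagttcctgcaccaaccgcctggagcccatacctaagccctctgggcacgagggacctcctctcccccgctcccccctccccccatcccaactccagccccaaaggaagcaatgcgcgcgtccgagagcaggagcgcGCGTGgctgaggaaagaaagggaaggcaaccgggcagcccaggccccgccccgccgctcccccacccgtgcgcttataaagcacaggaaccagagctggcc
BHLHE40: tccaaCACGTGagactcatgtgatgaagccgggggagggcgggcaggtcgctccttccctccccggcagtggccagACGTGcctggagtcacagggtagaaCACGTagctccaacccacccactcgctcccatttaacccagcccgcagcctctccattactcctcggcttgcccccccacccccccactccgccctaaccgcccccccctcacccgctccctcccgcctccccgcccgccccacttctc
ANGPTL4: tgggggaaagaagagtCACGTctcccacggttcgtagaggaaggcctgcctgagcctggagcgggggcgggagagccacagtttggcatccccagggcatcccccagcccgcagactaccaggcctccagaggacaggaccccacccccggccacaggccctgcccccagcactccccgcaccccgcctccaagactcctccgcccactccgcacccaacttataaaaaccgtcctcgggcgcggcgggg

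The libraries held 10327747 to 13980843 expected counts, of which nuclear protein-coding genes took between 37.7% (sh control) and 66.3% (pCDH control). RBMS1 (chromosome 2, 160272151 to 160493794, minus strand), the targeted gene, was at 31.0 CPM in shctrl, 18.3 in sh1088, 13.4 in sh1196, 24.7 in pcdh and 37.0 in R1A, where CPM stands for counts relative to the TMM-scaled library size. Its knockdown log2 fold change was -0.93 (standard error 0.45, edgeR adjusted p = 0.828), and its overexpression log2 ratio was 0.58 (interval 0.39 to 0.78). By scaled counts each library lay on the labelled side of its control. Only 0.12 was left of the overexpression ratio once the trend with GC content was taken out, and per length (the authors' TPM rescaled to the same sum over nuclear protein-coding genes in each library) RBMS1 stood at 14.2 in shctrl, 20.0 in sh1088, 13.6 in sh1196, 24.1 in pcdh and 43.1 in R1A, so sh1088 was not below its control on that scale. Of the coding stretches of 30 bases (30-mers) in RBMS1, 57.8% also occur in the pseudogene RBMS1P1. Its reads can thus be split between copies, and its level is uncertain. Group names are therefore those of the labels. Of 11 A549 or lung epithelial markers 7 were above 1 CPM in every library, among them KRT7, KRT8, KRT18 and AKR1B10. The lung lineage factor NKX2-1 had 0 counts in each library, and the surfactant genes SFTPB and SFTPC were at or near 0. Summed CPM of the marker lists of other cell types was 2.37 to 9.59 for fibroblasts, 0.155 to 1.18 for endothelium and 21.4 to 88.5 for immune cells, the last nearly all CD68, with PTPRC and CD3E at 0.

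Members spanned a wide range of footprint levels. PKM, the last enzyme of glycolysis, and ENO1, the enolase, had the highest mean CPM, 16 members had a mean of at least 100 CPM and 6 had one under 5 CPM (HK2, ALDOC, PGAM1, PFKFB4, CA9 and ANKRD37). Levels of different genes are compared below per length, on the rescaled TPM given for RBMS1. On that scale PKM stood at 2779.9 in shctrl, 2522 in sh1088, 2511 in sh1196, 1799 in pcdh and 4370.1 in R1A, and its rank among nuclear protein-coding genes lay between 7 (R1A) and 46 (pCDH control). ENO1 ranked between 11 (R1A) and 65 (pCDH control), and LDHA between 27 (R1A) and 101 (sh control). At the low end PGAM1, the main phosphoglycerate mutase, had 33 counts in shctrl, 40 in sh1088, 31 in sh1196, 29 in pcdh and 35 in R1A. All of its coding 30-mers also occur in other annotated genes, mostly processed pseudogenes, so its reads can be split among copies and its level is uncertain. The same holds in part for ALDOA, whose 30-mers all occur in the overlapping gene AC093512.2, for LDHB (92.9%), GAPDH (66.0%), TPI1 (59.1%), SLC2A3 (51.1%, shared with SLC2A14), BNIP3 (49.2%) and LDHA (45.4%). To a smaller extent it holds for HK2 (35.6%, nearly all shared with pseudogenes such as HK2P1) and PGK1 (30.6%). On the same strand GPI, PFKP, PGK1, LDHB, SLC2A1, SLC16A3, PFKFB4 and HIF1A share exon sequence with another gene. PFKM, SLC16A3, CA9, BNIP3L and ANKRD37 share it on the opposite strand with a protein-coding gene, TPI1 does so over a few bases, and no source states that counting used the strand.

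**Figure D1:**
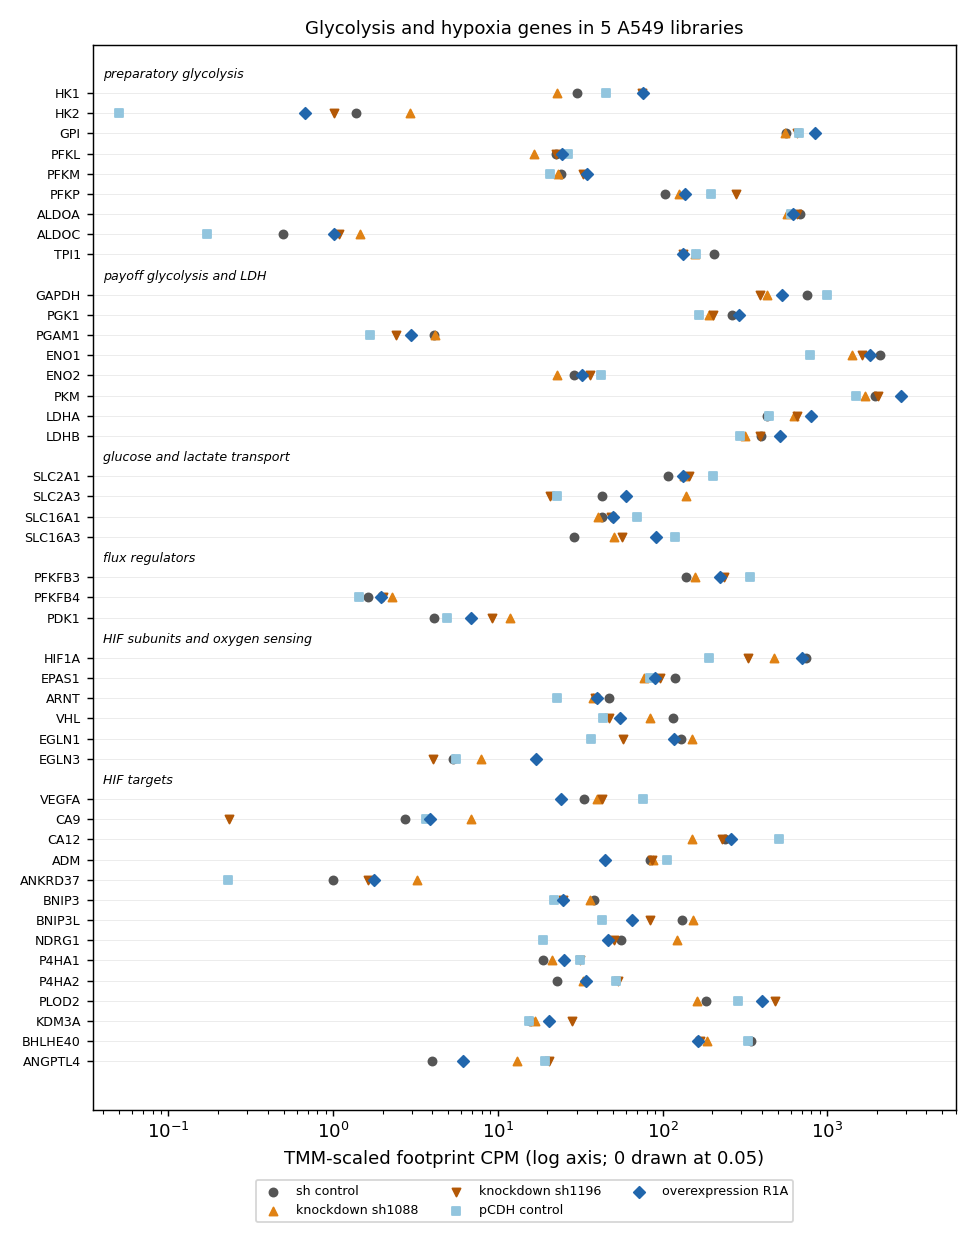
Footprint level of each of the 44 members in the 5 libraries, as TMM-scaled CPM on a log axis, with members grouped by role and 1 symbol per library. PKM and ENO1 stand furthest to the right, and HIF1A, EGLN1, CA12 and ANGPTL4 show wide gaps between the 2 controls; the 0 of HK2 in the pCDH control is drawn at 0.05.

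The 17 glycolytic enzymes and lactate dehydrogenase subunits together took 1.38% of nuclear protein-coding counts in shctrl, 1.19% in sh1088, 1.35% in sh1196, 1.12% in pcdh and 1.57% in R1A. Wilson 95% intervals were narrow, from 1.37% to 1.39% in the sh control and from 1.56% to 1.58% in R1A, so counting error is small beside the gaps between libraries. The share was highest in R1A and lowest in its own control, and the knockdown libraries lay between the 2 controls. As a share of nuclear protein-coding TPM, in place of counts, it was 1.18% in shctrl, 1.15% in sh1088, 1.26% in sh1196, 1.03% in pcdh and 1.64% in R1A, so R1A and its control again marked the ends but sh1196 lay above both controls. PKM alone gave 25.7% of these counts in the sh control, 25.0% in the pCDH control and 32.3% in R1A. ENO1 gave 27.8% in the sh control, 13.3% in the pCDH control and 21.0% in R1A, and GAPDH 9.94%, 16.8% and 6.17%. In the hairpin libraries ENO1 gave 22.8% and 22.5% and GAPDH 7.01% and 5.48%, so the pCDH control held the largest part of GAPDH and the smallest of ENO1 among the 5 libraries.

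**Figure D2:**
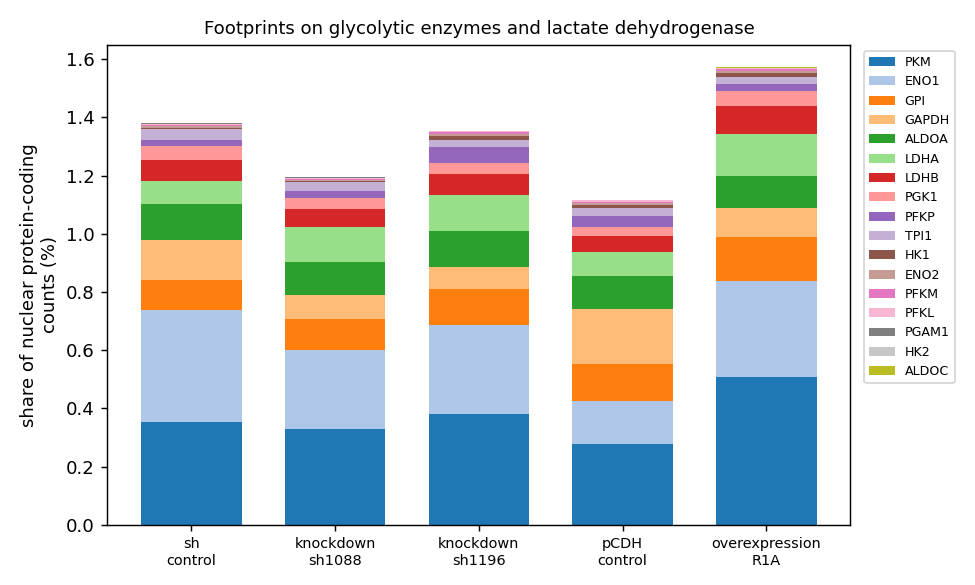
Share of nuclear protein-coding counts (%) taken by the 17 glycolytic enzymes and lactate dehydrogenase subunits, stacked by gene, with 1 bar per library. The whole bar runs from 1.12% in the pCDH control to 1.57% in R1A, and PKM and ENO1 make up the largest blocks in every library except the pCDH control, where GAPDH exceeds ENO1.

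In knockdown LDHA, SLC16A3, PDK1 and ANGPTL4 were above the sh control in both hairpin libraries and GAPDH, HIF1A and BHLHE40 below it, but no member passed the test. In the edgeR quasi-likelihood test 0 of 44 members passed an adjusted p of 0.05, where 0.0% of 14913 genes did, and the members' adjusted p ran from 0.828 to 0.994. DESeq2 and limma-voom also called 0 members. At an unadjusted p under 0.05 there were 2 members higher, PDK1 and ANGPTL4, where 3.27% of all genes were, and 0 lower, where 2.61% were. The median log2 fold change was 0.16 over the members and 0.07 over all genes, with 26 members above 0 and 18 below. Both hairpin libraries were above the sh control for 15 members, where 34.9% of all genes were, and below it for 14, where 36.0% were. These shares of members, 34.1% and 31.8%, were near the background. When both controls were considered, 6 members lay higher in both knockdown libraries than in either control (ALDOC, LDHA, PFKFB4, PDK1, ANKRD37 and KDM3A; 14.6% of all genes) and 5 lay lower (PFKL, TPI1, GAPDH, CA12 and BHLHE40; 13.2% of all genes). The share of counts in nuclear protein-coding genes, given above, was 42.2% in sh1088 and 66.0% in sh1196 beside 37.7% in their control, and its part in these differences was not tested.

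A fit over all 5 libraries, with the RBMS1 level coded -1, 0 and 1 and a term for the vector system, called 0 of 44 members, where 1 of 15827 genes (0.00632%) was called. DESeq2 and limma-voom called 0 members in the same fit. Unadjusted p-values under 0.05 were found for 1 member with a positive change, HIF1A (3.34% of all genes), and for 1 with a negative one, ANGPTL4 (3.27% of all genes).

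Without matched mRNA libraries, fewer mRNA copies and fewer ribosomes per copy cannot be told apart in any of these comparisons, nor, in bulk cells, fewer expressing cells and less RNA per cell.

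In overexpression HIF1A, the oxygen sensors EGLN1 and EGLN3 and ENO1 were above the pCDH control, and VEGFA, ADM and ANGPTL4 below it. In that comparison 38 members had a mean of at least 5 CPM. R1A was at least 2-fold higher for 6 of them (ENO1, SLC2A3, HIF1A, EGLN1, EGLN3 and NDRG1), where 14.6% of 10441 genes were, and at least 2-fold lower for 4 (VEGFA, ADM, BHLHE40 and ANGPTL4), where 13.7% were. The shares of members were 15.8% and 10.5%. The counting interval lay wholly past 2-fold for all 6 of the higher members (9.86% of all genes) and for 3 of the lower ones, all but BHLHE40 (8.55% of all genes). The median log2 ratio was 0.24 over the members and 0.06 over all genes. Ratios between these 2 libraries fell with GC content (Spearman rho -0.58 over 9980 genes and -0.38 over the 38 members, a description across genes of 2 libraries), and the mean fragment length was 40.8 nt in R1A and 52.3 nt in the pCDH control. With that trend taken out 7 members were at least 2-fold higher, now with PKM (11.1% of all genes), and only VEGFA was at least 2-fold lower (7.66% of all genes). The part of fragment length was not tested. By the authors' TPM, with a pseudocount of 1, 1 member was at least 2-fold higher and 13 were at least 2-fold lower, on a scale where all genes had a median of -0.72.

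The 2 control libraries differed from each other by about as much as R1A from its control. They were at least 2-fold apart for 13 of the 38 members, where 35.7% of all genes were, and R1A lay between the 2 controls for 21 members, where 43.9% of all genes did. The median absolute log2 difference over the members was 0.69 between the controls, 0.67 between R1A and the pCDH control and 0.47 between the 2 hairpin libraries. The hairpin libraries were at least 2-fold apart for 6 members, HK1, PFKP, SLC2A3, EGLN1, NDRG1 and PLOD2 (13.2% of all genes).

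**Figure D3:**
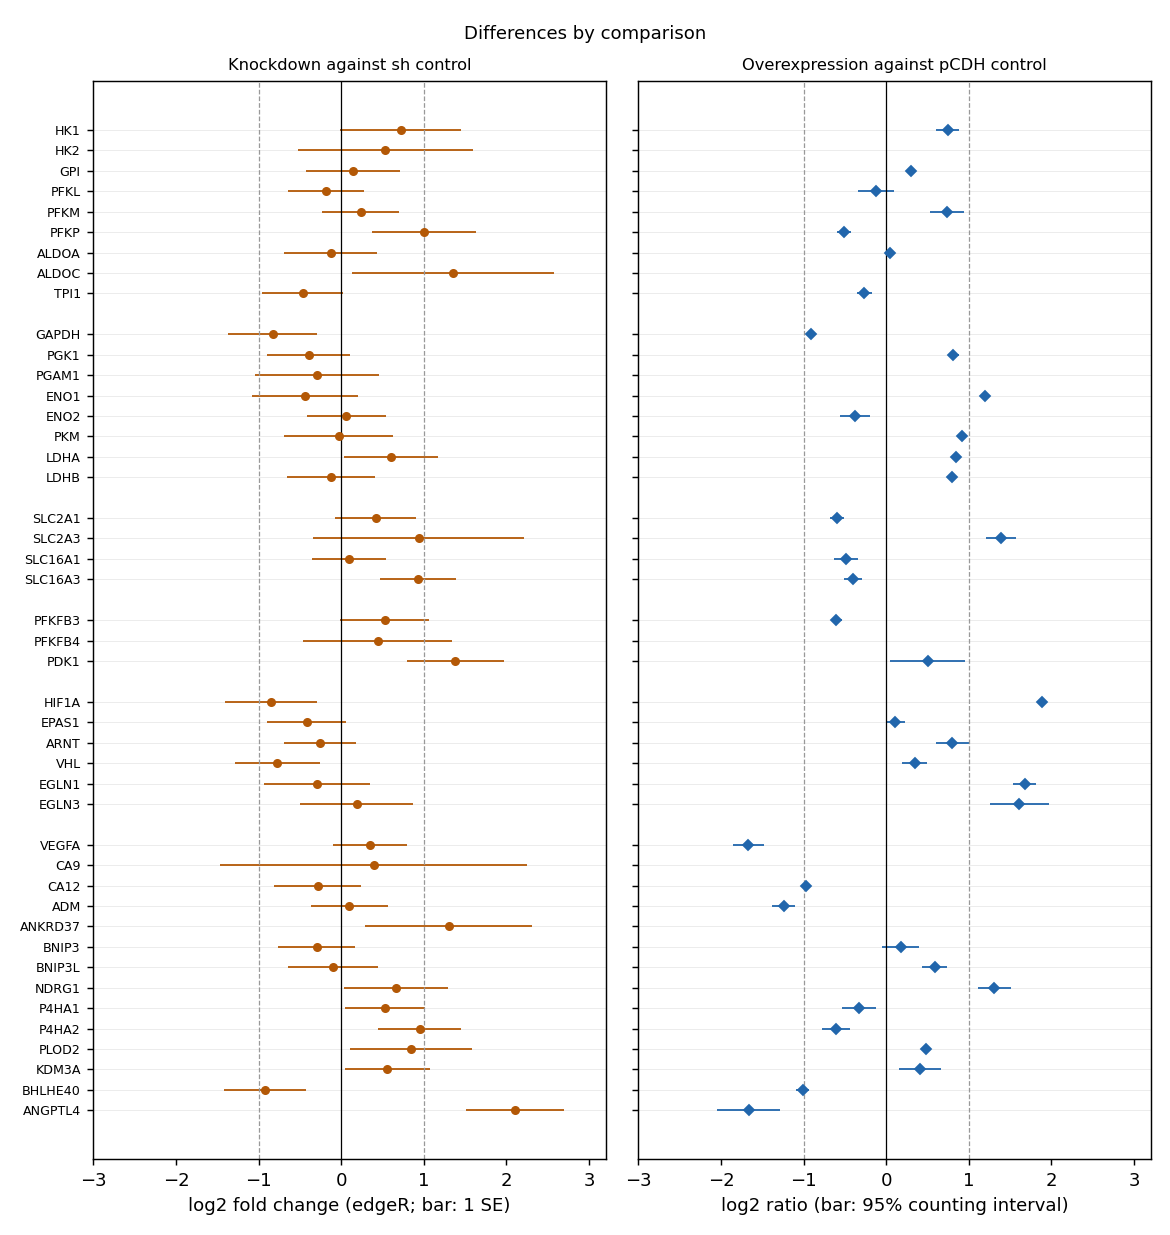
Left, log2 fold change of knockdown over the sh control with 1 standard error for each member; right, log2 ratio of R1A over the pCDH control with its 95% counting interval for the 38 members with a mean of at least 5 CPM. Dashed lines mark 2-fold; values on the left run from BHLHE40 at -0.92 to ANGPTL4 at 2.11, and HIF1A at 1.88 and VEGFA at -1.67 mark the ends on the right.

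The preparatory phase, from hexokinase to triose phosphate isomerase, had 9 members with a median log2 fold change of 0.23 in knockdown, 6 above 0 and 3 below, none past the test (0 also at an unadjusted p under 0.05). For overexpression the median was 0.05 over 7 members, with 0 past 2-fold in either direction, and 0.79 with the GC trend taken out, again with 0 past 2-fold. HK1, a hexokinase that traps glucose as its phosphate, was at 30.4 CPM in shctrl, 22.8 in sh1088, 75.0 in sh1196, 45.4 in pcdh and 76.0 in R1A. The hairpins disagreed on HK1, with sh1088 below the sh control and sh1196 above it, and its knockdown log2 fold change was 0.72 (standard error 0.73, edgeR adjusted p = 0.873). HK2, the isozyme that many tumours add, was given few counts, 11 in shctrl, 28 in sh1088, 13 in sh1196, 0 in pcdh and 8 in R1A. Its 0 in the pCDH control allows up to 3 counts, and no fold was taken. HKDC1, a hexokinase outside the member list, stood per length at 38.1 in shctrl, 51.0 in sh1088, 57.1 in sh1196, 40.4 in pcdh and 39.4 in R1A. HK1 stood at 22.5, 19.8, 88.6, 27.9 and 83.7 in the same order, so HKDC1 exceeded it in shctrl, sh1088 and pcdh.

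The committed step of glycolysis is run by phosphofructokinase. PFKP, the platelet-type subunit, was at 103 CPM in shctrl, 126 in sh1088, 279.6 in sh1196, 196 in pcdh and 138 in R1A, so the sh1196 library was above the other 4 and sh1088 stood near R1A. In knockdown the log2 fold change of PFKP was 1.00 (standard error 0.63, edgeR adjusted p = 0.828) and its overexpression log2 ratio -0.51 (interval -0.60 to -0.42), or 0.023 with the GC trend taken out. PFKL, the liver-type subunit, was at 22.6 CPM in shctrl, 16.4 in sh1088, 22.4 in sh1196, 26.5 in pcdh and 24.4 in R1A, with sh1088 lowest, sh1196 just under the sh control and R1A under its own control. PFKM, the muscle-type subunit, was at 24.3 CPM in shctrl, 23.2 in sh1088, 32.7 in sh1196, 20.8 in pcdh and 34.7 in R1A, with sh1196 and R1A highest. Per length PFKP was the main subunit in every library, with a share of 60.6% in shctrl, 64.5% in sh1088, 79.9% in sh1196, 76.6% in pcdh and 60.6% in R1A. Its share was higher in sh1196 and the pCDH control than in the other 3 libraries.

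The remaining steps of this phase varied less between libraries. GPI, which isomerises glucose phosphate to fructose phosphate, was at 560.1 CPM in shctrl, 553 in sh1088, 655 in sh1196, 677 in pcdh and 836 in R1A, highest in R1A, with an overexpression log2 ratio of 0.31 (interval 0.27 to 0.34), or 0.56 with the GC trend taken out. ALDOA, the aldolase of most tissues, was at 683 CPM in shctrl, 570.1 in sh1088, 652 in sh1196, 598 in pcdh and 619 in R1A, with the 5 libraries within a narrow band. ALDOC, its brain paralog, had 4 counts in shctrl, 14 in sh1088, 14 in sh1196, 3 in pcdh and 12 in R1A, at most 0.342% of the aldolase pair per length. TPI1, which interconverts the triose phosphates, was at 204 CPM in shctrl, 156 in sh1088, 133 in sh1196, 160.0 in pcdh and 133 in R1A, with both hairpin libraries and R1A below both controls. Per length the order of TPI1 was different, at 365 in shctrl, 352 in sh1088, 383 in sh1196, 259 in pcdh and 364 in R1A, with the pCDH control lowest and sh1196 highest, and its overexpression log2 ratio of -0.27 became 0.26 with the GC trend taken out. For TPI1 the knockdown log2 fold change was -0.47 (standard error 0.49, edgeR adjusted p = 0.874).

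The payoff phase and lactate dehydrogenase had 8 members. Their median was -0.21 in knockdown, with 2 above 0 and 6 below and 0 at an unadjusted p under 0.05, and 0.81 in overexpression (0.52 with the GC trend taken out), with 5 of 7 measured members higher in R1A and 2 lower. ENO1 (chromosome 1, 8861000 to 8879250, minus strand), whose promoter is printed above, was at 2098 CPM in shctrl, 1407 in sh1088, 1614 in sh1196, 789.8 in pcdh and 1817 in R1A. The pCDH control was far below the other 4 libraries, and the sh control was the highest of all. The overexpression log2 ratio was 1.20 (interval 1.17 to 1.23), or 1.82 with the GC trend taken out, whereas R1A against the sh control gave -0.21. The knockdown log2 fold change of ENO1 was -0.44 (standard error 0.64, edgeR adjusted p = 0.91), and with pcdh as the control it was 0.95. ENO2, the neuronal enolase, was at 29.04 CPM in shctrl, 22.9 in sh1088, 36.3 in sh1196, 42.0 in pcdh and 32.5 in R1A, and its per-length share of the enolase pair ran from 1.26% in R1A to 6.76% in the pCDH control, the library with the least ENO1.

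PKM (chromosome 15, 72199029 to 72231822, minus strand), which makes pyruvate and ATP, was at 1939 CPM in shctrl, 1693 in sh1088, 2024 in sh1196, 1484 in pcdh and 2795 in R1A, with R1A highest and the pCDH control lowest. Its overexpression log2 ratio was 0.91 (interval 0.89 to 0.94), or 1.51 with the GC trend taken out, and its knockdown log2 fold change was -0.029 (standard error 0.66, edgeR adjusted p = 0.994). GAPDH, which starts the payoff phase, was at 749.9 CPM in shctrl, 433 in sh1088, 393 in sh1196, 999 in pcdh and 534 in R1A. Both hairpin libraries and R1A lay below both controls, so its values were lower both with RBMS1 depleted and with RBMS1 overexpressed. GAPDH had a knockdown log2 fold change of -0.83 (standard error 0.54, edgeR adjusted p = 0.828) and an overexpression log2 ratio of -0.90 (interval -0.95 to -0.86), or -0.29 with the GC trend taken out. PGK1 (chromosome X, 77910739 to 78129296, plus strand), which makes the phase's ATP ahead of the mutase, was at 265 CPM in shctrl, 191 in sh1088, 203 in sh1196, 166 in pcdh and 292 in R1A. R1A and the sh control were high and the pCDH control low, with an overexpression log2 ratio of 0.81 (interval 0.74 to 0.89), or 0.44 with the GC trend taken out. Per length PGK1 stood at 241 in shctrl, 328 in sh1088, 471 in sh1196, 295 in pcdh and 676 in R1A, with R1A again highest but the sh control lowest. It shares exon sequence on its strand with ATP7A, so counts may be split between them.

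LDHA (chromosome 11, 18394388 to 18408425, plus strand), the lactate dehydrogenase subunit favoured in muscle and tumours, was at 433 CPM in shctrl, 629 in sh1088, 656 in sh1196, 442 in pcdh and 796 in R1A. The 2 controls nearly coincided, and both hairpin libraries and R1A lay above both of them. Its knockdown log2 fold change was 0.60 (standard error 0.57, edgeR adjusted p = 0.865), sh1088 giving 0.54 and sh1196 0.60, and its overexpression log2 ratio was 0.85 (interval 0.81 to 0.89), or 0.52 with the GC trend taken out. LDHA was thus the mirror of GAPDH, with depletion and overexpression on the same side of the controls. LDHB, the heart-type subunit, was at 395 CPM in shctrl, 316 in sh1088, 391 in sh1196, 295 in pcdh and 515 in R1A, with an overexpression log2 ratio of 0.80 (interval 0.75 to 0.86). LDHA's per-length share of the pair was 67.5% in shctrl, 79.7% in sh1088, 74.0% in sh1196, 74.1% in pcdh and 73.9% in R1A, so the sh1088 and sh control libraries marked the ends and the other 3 coincided.

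Glucose and lactate transport had 4 members, all above 0 in knockdown with a median of 0.67, and 1 of 4 higher in R1A with a median of -0.44, which became 0.12 with the GC trend taken out. No member had an unadjusted p under 0.05 in knockdown. SLC16A3, the lactate exporter known as a HIF target, was at 28.9 CPM in shctrl, 51.0 in sh1088, 56.4 in sh1196, 119 in pcdh and 90.6 in R1A. Both hairpin libraries were above the sh control and both were below the pCDH control, the 2 controls being 2.05 apart on the log2 scale. Its knockdown log2 fold change was 0.93 (standard error 0.46, edgeR unadjusted p = 0.0795, adjusted p = 0.828), and with pcdh as the control it was -1.14. SLC16A1, the other monocarboxylate carrier, was at 42.8 CPM in shctrl, 40.7 in sh1088, 48.5 in sh1196, 70.2 in pcdh and 50.0 in R1A, with the pCDH control highest. Per length SLC16A3 stood at 106 in shctrl, 158 in sh1088, 160.0 in sh1196, 158 in pcdh and 282 in R1A, with the hairpin libraries and the pCDH control close together and R1A highest. The per-length share of SLC16A3 in the pair was 62.2% in shctrl, 73.5% in sh1088, 69.2% in sh1196, 57.0% in pcdh and 80.2% in R1A, most in R1A.

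SLC2A3, the high-affinity neuronal-type glucose carrier, was at 42.8 CPM in shctrl, 139 in sh1088, 20.8 in sh1196, 22.9 in pcdh and 59.9 in R1A. Among members with a mean of at least 5 CPM the hairpins were furthest apart here, with sh1088 above and sh1196 below every other library. The knockdown log2 fold change of SLC2A3 was accordingly uncertain, at 0.94 (standard error 1.28, edgeR adjusted p = 0.91), and the overexpression log2 ratio was 1.39 (interval 1.21 to 1.57). SLC2A1, the widespread basal glucose carrier, was at 108 CPM in shctrl, 136 in sh1088, 146 in sh1196, 202 in pcdh and 133 in R1A, with R1A below its control at -0.60 (interval -0.68 to -0.51), or -0.23 with the GC trend taken out. The per-length share of SLC2A1 in the pair was 61.3% in shctrl, 38.0% in sh1088, 76.8% in sh1196, 82.0% in pcdh and 59.3% in R1A, so SLC2A3 exceeded SLC2A1 in sh1088 alone.

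**Figure D4:**
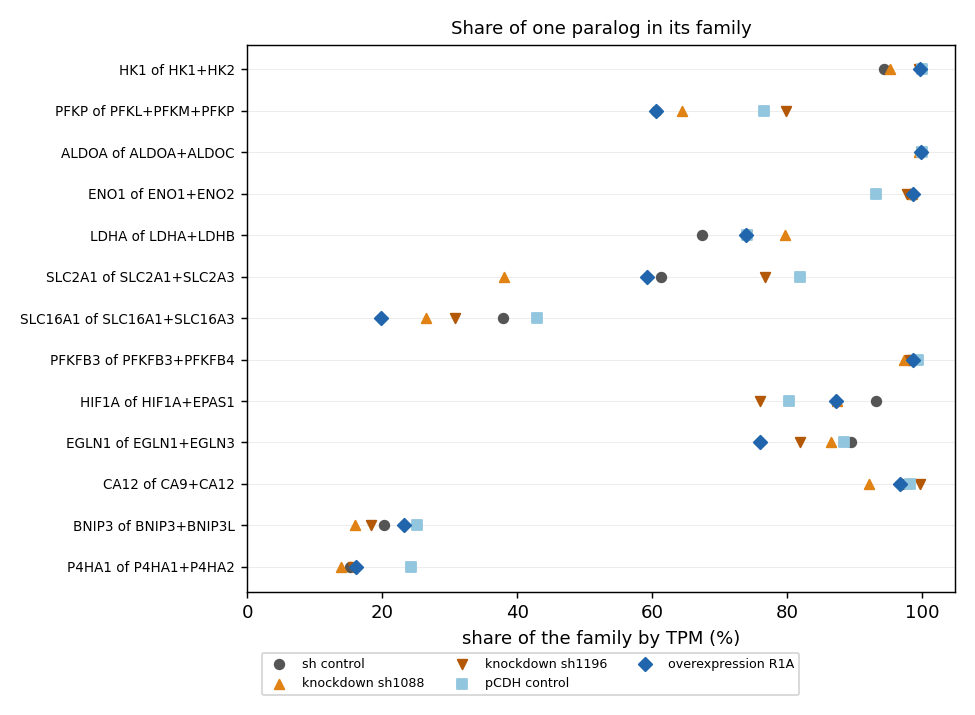
Share of 1 paralog among the listed members of its family per length (%) in each of the 5 libraries, with 1 symbol per library. Among these members HK1, ALDOA, ENO1 and PFKFB3 take over 90% in every library, while the share of SLC2A1 runs from 38.0% in sh1088 to 82.0% in the pCDH control. Paralogs outside the member list, such as HKDC1, PFKFB2 and ENO3, are not counted.

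The 3 regulators of flux were all above 0 in knockdown, with a median of 0.53. PDK1, a kinase that shuts pyruvate dehydrogenase and so keeps pyruvate out of mitochondria, was at 4.11 CPM in shctrl, 11.9 in sh1088, 9.16 in sh1196, 4.88 in pcdh and 6.91 in R1A. Both hairpin libraries were above all 3 others, and R1A was above both controls. The knockdown log2 fold change of PDK1 was 1.38 (standard error 0.59, edgeR unadjusted p = 0.0472, adjusted p = 0.828), and with the pCDH control it was 1.12. It rested on 33 counts in shctrl, 114 in sh1088 and 118 in sh1196. Per length PDK1 stood at 1.43 in shctrl, 22.4 in sh1088, 18.8 in sh1196, 15.1 in pcdh and 9.72 in R1A, so both hairpin libraries were again highest, but the pCDH control lay well above the sh control. PFKFB3, which makes the activator of phosphofructokinase, was at 139.6 CPM in shctrl, 157 in sh1088, 237 in sh1196, 341 in pcdh and 224 in R1A, lowest in the sh control and highest in the pCDH control. Its knockdown log2 fold change was 0.53 (standard error 0.54, edgeR adjusted p = 0.87), and its overexpression log2 ratio -0.60 (interval -0.67 to -0.54), or -0.18 with the GC trend taken out. PFKFB4, its paralog, had 13 counts in shctrl, 22 in sh1088, 26 in sh1196, 25 in pcdh and 23 in R1A, no more than 2.63% of the pair per length in any library, with a knockdown log2 fold change of 0.44 (standard error 0.90, edgeR adjusted p = 0.942).

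HIF subunits and oxygen sensing was the list with the largest median shift in overexpression among the 6 role lists, 1.21, with 6 of 6 members higher in R1A than in the pCDH control and 3 past 2-fold. In knockdown its median was -0.36, with 1 member above 0 and 5 below, and 0 at an unadjusted p under 0.05. The same 6 genes had a median of -1.23 in the pCDH control against the sh control, with 4 of them at least 2-fold apart, so the pCDH control was low for this list. HIF1A (chromosome 14, 61695513 to 61748259, plus strand) was at 741 CPM in shctrl, 472 in sh1088, 328 in sh1196, 191 in pcdh and 704 in R1A. The sh control and R1A were highest and nearly equal, the hairpin libraries were intermediate and the pCDH control was lowest, so the 2 controls marked the ends of the range. Its knockdown log2 fold change was -0.86 (standard error 0.56, edgeR adjusted p = 0.828), and both hairpin libraries lay below their control (-0.65 for sh1088 and -1.18 for sh1196). Its overexpression log2 ratio was 1.88 (interval 1.83 to 1.94). An overlapping noncoding gene on its strand, AL137129.1, held 29.5 to 298 counts, against 3320 or more for HIF1A in each library.

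Over all 5 libraries the change of HIF1A per step of RBMS1 level was 1.33 (standard error 0.46, edgeR unadjusted p = 0.0155, adjusted p = 0.729). The direction depended on the control used. With the pCDH control the knockdown log2 fold change of HIF1A was 1.08, and R1A against the sh control gave -0.074. HIF1A has the lowest GC content of the members (36.4%), and 1.18 was left of its overexpression log2 ratio with the GC trend taken out. Per length it stood at 1126 in shctrl, 654 in sh1088, 397 in sh1196, 434 in pcdh and 756 in R1A, so R1A exceeded the pCDH control by less on that scale and both hairpin libraries were still below the sh control. EPAS1, the alpha subunit prominent in endothelium and lung, was at 119 CPM in shctrl, 76.9 in sh1088, 96.4 in sh1196, 83.4 in pcdh and 89.9 in R1A, with a knockdown log2 fold change of -0.42 (standard error 0.47, edgeR adjusted p = 0.887). Per length EPAS1 stood at 81.1 in shctrl, 93.4 in sh1088, 125 in sh1196, 107 in pcdh and 109.8 in R1A, with the sh control lowest in place of highest. The per-length share of HIF1A in the alpha pair was 93.3% in shctrl, 87.5% in sh1088, 76.0% in sh1196, 80.3% in pcdh and 87.3% in R1A, most in the sh control. ARNT, the shared partner, was at 47.0 CPM in shctrl, 38.0 in sh1088, 39.0 in sh1196, 22.8 in pcdh and 39.7 in R1A, with the pCDH control alone low and an overexpression log2 ratio of 0.80 (interval 0.60 to 1.00). Per length ARNT stood at 20.1 in shctrl, 26.2 in sh1088, 45.2 in sh1196, 29.1 in pcdh and 32.8 in R1A, with the sh control lowest and sh1196 highest.

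EGLN1 (chromosome 1, 231363751 to 231425044, minus strand), the main oxygen sensor, was at 130.1 CPM in shctrl, 150.3 in sh1088, 57.2 in sh1196, 36.7 in pcdh and 117 in R1A. The sh control, sh1088 and R1A were high, and sh1196 and the pCDH control were low, so each vector system held both a high and a low library. The overexpression log2 ratio of EGLN1 was 1.67 (interval 1.54 to 1.81), and the hairpins gave 0.21 and -1.19 against the sh control. EGLN3, the paralog that HIF itself induces, was at 5.36 CPM in shctrl, 7.91 in sh1088, 4.04 in sh1196, 5.57 in pcdh and 17.0 in R1A, with R1A above the other 4 libraries and the 2 controls alike. Its overexpression log2 ratio was 1.61 (interval 1.26 to 1.98), 1.62 with the GC trend taken out and 1.67 against the sh control. Per length EGLN3 stood at 6.18 in shctrl, 8.81 in sh1088, 4.76 in sh1196, 4.33 in pcdh and 22.0 in R1A, again highest in R1A. Of the 6 members at least 2-fold higher in R1A, EGLN3 was also at least 2-fold higher than the sh control. By scaled counts ENO1, HIF1A, EGLN1 and NDRG1 were slightly below that control in R1A, and SLC2A3 stood 0.49 above it on the log2 scale. Per length R1A was above the sh control for ENO1 (3519 against 3181), EGLN1 (70.0 against 52.6) and NDRG1 (139 against 129), and below it for HIF1A. EGLN1's per-length share of the pair was 89.5% in shctrl, 86.6% in sh1088, 82.0% in sh1196, 88.5% in pcdh and 76.1% in R1A, lowest in R1A. VHL, the recognition subunit for hydroxylated HIF, was at 115 CPM in shctrl, 84.0 in sh1088, 47.6 in sh1196, 43.3 in pcdh and 55.0 in R1A, highest in the sh control, with a knockdown log2 fold change of -0.77 (standard error 0.51, edgeR adjusted p = 0.828).

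HIF targets had 14 members. In knockdown 10 were above 0 and 4 below, with a median of 0.46, and 1 had an unadjusted p under 0.05. In overexpression 5 of 12 measured members were higher in R1A and 7 lower, with a median of -0.47, so this list and that of the HIF subunits had medians of opposite sign in both comparisons. Their medians also had opposite signs between the controls alone, pcdh against shctrl giving 0.50 for the targets and -1.23 for the subunits. The controls were at least 2-fold apart for 6 of the 12 targets, and the part of that gap was not tested. VEGFA (chromosome 6, 43770184 to 43786487, plus strand), the main signal for vessel growth, was at 33.3 CPM in shctrl, 40.0 in sh1088, 42.7 in sh1196, 76.4 in pcdh and 24.02 in R1A. The pCDH control was highest and R1A lowest, and the sh control and both hairpins lay between. Per length VEGFA stood at 24.2 in shctrl, 41.3 in sh1088, 75.1 in sh1196, 133 in pcdh and 25.2 in R1A, with the pCDH control again highest and the sh control just under R1A. The overexpression log2 ratio of VEGFA was -1.67 (interval -1.86 to -1.48), or -1.53 with the GC trend taken out, and R1A against the sh control gave -0.47. ADM, a vessel-dilating peptide, was at 83.3 CPM in shctrl, 87.9 in sh1088, 86.1 in sh1196, 106 in pcdh and 44.8 in R1A, with R1A below all other libraries and the sh control and both hairpins within a narrow band. The overexpression log2 ratio of ADM was -1.24 (interval -1.38 to -1.10), which became -0.65 with the GC trend taken out.

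ANGPTL4 (chromosome 19, 8363289 to 8374373, plus strand), a secreted inhibitor of lipoprotein lipase, was at 3.99 CPM in shctrl, 13.1 in sh1088, 20.5 in sh1196, 19.4 in pcdh and 6.15 in R1A. The sh control and R1A were low, and both hairpins and the pCDH control were high. The knockdown log2 fold change of ANGPTL4 was 2.11 (standard error 0.59, edgeR unadjusted p = 0.00713, adjusted p = 0.828), sh1088 giving 1.72 and sh1196 2.36, and the change per step of RBMS1 level was -1.88 (standard error 0.46, edgeR unadjusted p = 0.00165, adjusted p = 0.634). Its overexpression log2 ratio was -1.66 (interval -2.04 to -1.29), or -0.75 with the GC trend taken out. ANGPTL4 was thus higher in 2 of 2 hairpin libraries and lower in R1A, each against its own control, but the 2 controls differed by 2.28. With the pCDH control the knockdown value was -0.19, and R1A against the sh control gave 0.63. The sh control held 32 counts of this gene. Per length ANGPTL4 stood at 6.45 in shctrl, 35.2 in sh1088, 44.01 in sh1196, 31.1 in pcdh and 13.8 in R1A, with the same 2 libraries low.

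BHLHE40 (chromosome 3, 4979116 to 4985323, plus strand), a transcriptional repressor induced by hypoxia, was at 344 CPM in shctrl, 187 in sh1088, 167 in sh1196, 328 in pcdh and 163 in R1A. The 2 controls were nearly equal, and both hairpins and R1A lay at about the same level below them. The knockdown log2 fold change of BHLHE40 was -0.92 (standard error 0.50, edgeR unadjusted p = 0.099, adjusted p = 0.828) and its overexpression log2 ratio -1.01 (interval -1.09 to -0.94). With the controls exchanged the values were -0.87 for knockdown and -1.08 for overexpression, so BHLHE40, unlike HIF1A and ANGPTL4, gave nearly the same value with either control. Per length it stood at 189.8 in shctrl, 111 in sh1088, 108 in sh1196, 215 in pcdh and 108 in R1A, with the controls again highest. With the GC trend taken out the overexpression log2 ratio of BHLHE40 was -0.83. Its values were thus lower both with RBMS1 depleted and with RBMS1 overexpressed, by a similar amount.

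**Figure D5:**
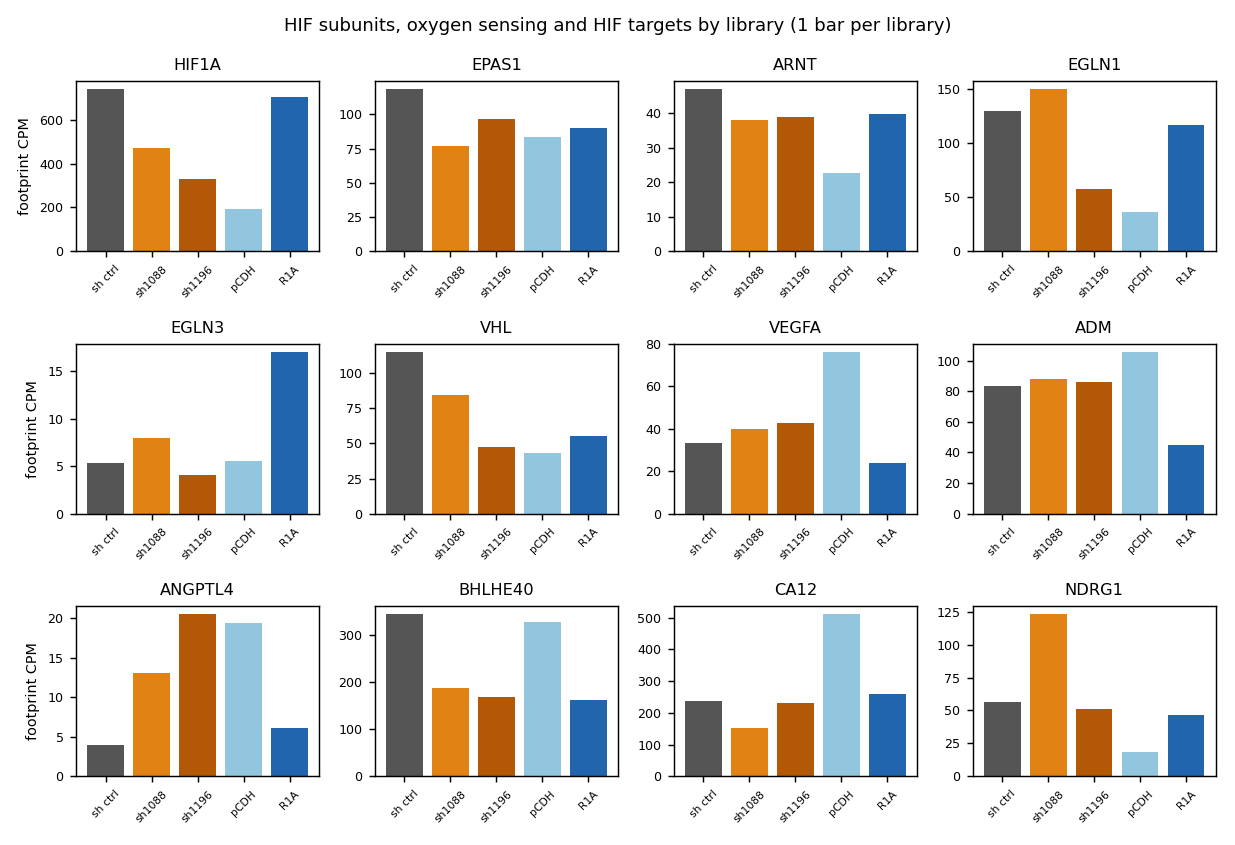
TMM-scaled footprint CPM of 12 genes of the HIF system, with 1 bar per library and each vertical axis starting at 0. BHLHE40 is high in both controls (344 and 328) and low in the other 3 libraries, whereas HIF1A is high in the sh control (741) and lowest in the pCDH control (191).

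Enzymes of collagen maturation are a further branch of the HIF targets. P4HA2, a subunit of collagen prolyl hydroxylase, was at 22.9 CPM in shctrl, 32.9 in sh1088, 53.6 in sh1196, 52.1 in pcdh and 34.2 in R1A, with the sh control lowest, and had a knockdown log2 fold change of 0.95 (standard error 0.51, edgeR unadjusted p = 0.0981, adjusted p = 0.828). P4HA1, its paralog, was at 18.7 CPM in shctrl, 21.2 in sh1088, 31.6 in sh1196, 31.6 in pcdh and 25.1 in R1A and its per-length share of the pair was 15.2% in shctrl, 13.96% in sh1088, 15.7% in sh1196, 24.3% in pcdh and 16.1% in R1A. PLOD2, the lysyl hydroxylase of collagen crosslinks, was at 184 CPM in shctrl, 161 in sh1088, 484 in sh1196, 288 in pcdh and 403 in R1A, highest in sh1196, and the hairpins gave -0.19 and 1.40 against the sh control. KDM3A, a histone demethylase, lay between 15.4 CPM in the pCDH control and 28.02 in sh1196.

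CA12, a carbonic anhydrase of the cell surface that handles exported acid, was at 238 CPM in shctrl, 151 in sh1088, 230.1 in sh1196, 511 in pcdh and 259.5 in R1A, with sh1088 lowest and the pCDH control highest, and an overexpression log2 ratio of -0.98 (interval -1.04 to -0.92). CA9, the classical hypoxia-induced paralog, had 22 counts in shctrl, 66 in sh1088, 3 in sh1196, 64 in pcdh and 46 in R1A, and took at most 7.87% of the pair per length. BNIP3L, a mitophagy receptor, was at 130.4 CPM in shctrl, 154 in sh1088, 83.8 in sh1196, 43.1 in pcdh and 64.7 in R1A, with all 3 libraries of the hairpin system above the pCDH control and R1A. BNIP3, its paralog, was at 38.4 CPM in shctrl, 36.2 in sh1088, 24.8 in sh1196, 21.9 in pcdh and 24.7 in R1A, and its per-length share of the pair lay between 16.0% in sh1088 and 25.1% in the pCDH control. NDRG1, a stress-induced growth suppressor, was at 56.2 CPM in shctrl, 123 in sh1088, 50.8 in sh1196, 18.8 in pcdh and 46.4 in R1A, with sh1088 alone high and the pCDH control low, and its overexpression log2 ratio was 1.31 (interval 1.11 to 1.51). ANKRD37, a small HIF target, had 8 counts in shctrl, 31 in sh1088, 21 in sh1196, 4 in pcdh and 21 in R1A, too few for a ratio against the pCDH control here.

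Further genes of the same pathways were taken from 6 lists with 94 names, of which PGLS was not matched by name. Of the 93 matched, 75 were tested by edgeR in each fit and 0 passed in either. In knockdown 3 had an unadjusted p under 0.05 and a higher value (3.27% of all genes) and 2 a lower one (2.61% of all genes). At that threshold 6 had a positive change in the level fit (3.34% of all genes) and 4 a negative one (3.27% of all genes). DESeq2 called 0 in knockdown, where it called 15 over all genes. In the level fit it called 1, PDK4, where it called 54 over all genes, and limma-voom called 0 in both fits. PDK4, another pyruvate dehydrogenase kinase, was at 127 CPM in shctrl, 59.0 in sh1088, 10.5 in sh1196, 20.2 in pcdh and 295 in R1A, with R1A far above the pCDH control and both hairpins below the sh control. Its change per step of RBMS1 level was 2.76 (standard error 0.89, edgeR unadjusted p = 0.0202, adjusted p = 0.729). PDK3 showed the same order in each arm, at 19.2 CPM in shctrl, 12.0 in sh1088, 8.15 in sh1196, 5.45 in pcdh and 16.0 in R1A, with 1.20 (standard error 0.43, edgeR unadjusted p = 0.0164, adjusted p = 0.729) per step. PDK1, by contrast, had a level change of -0.51 (standard error 0.60, edgeR adjusted p = 0.874), and the difference between the kinases was not tested. The controls were far apart, pcdh against shctrl giving -2.65 for PDK4 and -1.82 for PDK3. With the pCDH control the knockdown values turned to 0.80 for PDK4 and 0.90 for PDK3. R1A against the sh control gave 1.22 for PDK4 and -0.26 for PDK3.

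Among other enzymes of hexose metabolism (25 genes, 14 tested), 1 had an unadjusted p under 0.05 in knockdown, ADPGK, the ADP-dependent glucokinase, at 16.7 CPM in shctrl, 42.5 in sh1088, 73.4 in sh1196, 87.5 in pcdh and 51.8 in R1A. ADPGK was lowest in the sh control, and its knockdown log2 fold change was 1.83 (standard error 0.55, edgeR unadjusted p = 0.0103, adjusted p = 0.828). BPGM, the bisphosphoglycerate mutase, was at 18.6 CPM in shctrl, 15.8 in sh1088, 10.6 in sh1196, 4.88 in pcdh and 15.3 in R1A, with the pCDH control lowest. The pentose phosphate pathway (6 tested) had 0 genes at an unadjusted p under 0.05 in either fit.

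Among other hexose and monocarboxylate transporters (12 genes, 7 tested), SLC16A7, a high-affinity pyruvate and lactate carrier, was at 33.7 CPM in shctrl, 7.70 in sh1088, 6.83 in sh1196, 2.87 in pcdh and 5.23 in R1A, with the sh control above all other libraries. The knockdown log2 fold change of SLC16A7 was -2.18 (standard error 0.44, edgeR unadjusted p = 0.00108, adjusted p = 0.578). With the pCDH control it was 1.35. Per length SLC16A7 stood at 10.5 in shctrl, 6.43 in sh1088, 6.64 in sh1196, 4.35 in pcdh and 5.15 in R1A, with the sh control still highest but by less. BSG, the chaperone that brings SLC16A1 and SLC16A3 to the membrane, was at 209 CPM in shctrl, 350.4 in sh1088, 489 in sh1196, 794 in pcdh and 299.9 in R1A, with R1A well below the pCDH control and a change per step of -1.18 (standard error 0.44, edgeR unadjusted p = 0.021, adjusted p = 0.729). BSG followed the order of SLC16A3 in the hairpin system, with the sh control lowest and sh1196 highest.

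In other oxygen sensing (10 genes, 9 tested), ELOB, the elongin subunit that works with VHL, was at 267 CPM in shctrl, 164 in sh1088, 131 in sh1196, 67.1 in pcdh and 119 in R1A, with the sh control highest and the pCDH control lowest. HIF1AN, the asparagine hydroxylase that blocks HIF activity, was at 47.9 CPM in shctrl, 39.8 in sh1088, 32.1 in sh1196, 28.1 in pcdh and 48.5 in R1A, and its overexpression log2 ratio was 0.78 (interval 0.61 to 0.96). EGLN2, the third prolyl hydroxylase, went the other way, at 29.7 CPM in shctrl, 27.9 in sh1088, 26.6 in sh1196, 68.8 in pcdh and 16.4 in R1A, with an overexpression log2 ratio of -2.07 (interval -2.29 to -1.85), or -1.18 with the GC trend taken out. In other HIF targets (28 genes, 27 tested), MAFF, a small transcription factor, was at 3.12 CPM in shctrl, 10.7 in sh1088, 7.84 in sh1196, 12.0 in pcdh and 3.29 in R1A, with -1.70 (standard error 0.50, edgeR unadjusted p = 0.00604, adjusted p = 0.697) per step of RBMS1 level. LOXL2, a collagen crosslinking oxidase, was at 40.6 CPM in shctrl, 56.3 in sh1088, 215 in sh1196, 192 in pcdh and 63.0 in R1A, with -1.68 (standard error 0.57, edgeR unadjusted p = 0.0138, adjusted p = 0.729) per step. MAFF, like ANGPTL4, was low in the sh control and R1A and higher in both hairpins and the pCDH control, while LOXL2 was high in sh1196 and the pCDH control. TMEM45A, of the same list, rose instead, with 2.51 per step of RBMS1 level. It was at 9.10 CPM in shctrl, 4.68 in sh1088, 2.10 in sh1196, 0.057 in pcdh and 2.11 in R1A, with 1 count in the pCDH control.

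The authors' own comparisons differ in the number of calls and, for overexpression, in the values. In the authors' deposited table for knockdown, 2 of 44 members had an adjusted p under 0.05, ANGPTL4 at 2.10 (adjusted p = 0.00382) and BHLHE40 at -0.93 (adjusted p = 0.0394), where 3.46% of all genes did. In the authors' deposited table for overexpression 16 of 44 members did, 7 higher and 9 lower, where 25.4% of all genes did. The largest 2 differences among members with a mean of at least 5 CPM in the authors' deposited table were 1.90 for EGLN1 and 1.65 for HIF1A, and VEGFA stood at -1.29. SLC2A3, BHLHE40 and ANGPTL4 were also at least 2-fold apart there. ENO1 (0.85), EGLN3 (0.86), NDRG1 (0.70) and ADM (-0.63) were under 2-fold, beside 1.20, 1.61, 1.31 and -1.24 above. The sign differed for some members, such as GPI at -0.071 and ALDOA at -0.25 in that table. That table compares 1 library with 1, so its p-values have no replicate spread of either group behind them.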

How the data were processed

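Ribosome footprint libraries of 5 A549 lines were analysed from the deposited tables. The authors' expected counts, TPM and FPKM per gene are RSEM estimates, per the file headers. The authors' deposited comparison tables give a log2 fold change and p-values (adjusted) per gene, per the file headers. Bowtie, STAR 2.4.2, RSEM 1.3.1 and DESeq2 are named in the submitters' processing notes without their roles. The authors' build and gene models being not given in the sources used here, gene coordinates, biotypes and GC content came from GENCODE release 29 (GRCh38), which matched 58656 of 58929 genes and left 273 unmatched, and promoters from RefSeq. No per-sample column was left unused (0).

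Expected counts were rounded, scaled by TMM and filtered by filterByExpr. Knockdown against the sh control (14913 genes, 1 residual degree of freedom, the lone control assumed to vary like the knockdown libraries) and the RBMS1 level over all 5 libraries (15827 genes, 2 residual degrees of freedom, vector system as covariate) were tested by edgeR 4.0.16 in R 4.3.3 with robust quasi-likelihood and Benjamini-Hochberg adjustment over all genes at 0.05. Overexpression ratios, for genes with a mean of at least 5 CPM, carry exact conditional 95% counting intervals (scipy 1.17.1). The GC trend was a lowess curve over protein-coding genes (statsmodels 0.14.6, fraction 0.3). Per-length shares used the authors' TPM. Alternatives were DESeq2 1.42.0, limma 3.58.1 (voom), other scalings, filters, units (pseudocount 1) and controls. The fits and intervals were tested on simulated data. The share of coding 30-mers that occur in other genes was computed from GENCODE transcripts.

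The members and all gene lists were chosen with earlier results of these data known. Values in every library are given for RBMS1, for the most abundant member of each role list and the 3 or fewer with its smallest knockdown p, for members whose overexpression interval lies wholly past 2-fold, and for paralog families. Of the other pathway lists, up to 3 genes with the smallest level p could be named, along with paralogs of members. Other members are given where their values bear on a group.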

Additional observations from a re-analysis of the deposited data

How the results depend on the processing

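No member was called by edgeR in knockdown or in the RBMS1 level fit, and the count stayed at 0 under every alternative run, namely DESeq2, limma-voom, library size scaling, nuclear protein-coding genes only, no filter on low counts, pcdh as the knockdown control and leaving out each library in turn (RBMS1 level, 0 to 0). Over all genes the calls varied more. In knockdown they were 0 by edgeR, 15 by DESeq2, 0 by limma-voom, 27 with library size scaling, 4 with nuclear protein-coding genes only, 102 with no filter and 93 with the pCDH control. In the level fit they were 1 by edgeR, 54, 1, 36, 0 and 89 under the first 5 of these, and 0 (without the pCDH control) to 136 (without sh1088) when a library was left out. The knockdown median of the members less that of all genes was 0.10 and became -0.055 with no filter and 0.37 by the authors' TPM. It was 0.0056 without sh1088 and 0.085 without sh1196. Members at least 2-fold higher in R1A numbered 6, and 1 by TPM. Those at least 2-fold lower numbered 4, and 13 by TPM, 8 by FPKM and 1 with the GC trend taken out. Over all genes the median was itself -0.72 in TPM and -0.25 in FPKM. The cause of these changes was not tested.

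Single knockdown values changed sign as follows, none past the test. With library size scaling, which put the median of all genes at 0.62, they were PFKL 0.41, ALDOA 0.44, TPI1 0.058, PGK1 0.16, PGAM1 0.17, ENO1 0.13, PKM 0.55, LDHB 0.45, EPAS1 0.16, ARNT 0.30, EGLN1 0.11, CA12 0.32, BNIP3 0.19 and BNIP3L 0.36. By limma-voom the value was CA9 -1.27. With the pCDH control they were GPI -0.15, ALDOA 0.046, PGK1 0.26, PGAM1 0.99, ENO1 0.95, ENO2 -0.49, PKM 0.34, LDHB 0.27, SLC2A1 -0.50, SLC16A1 -0.64, SLC16A3 -1.14, PFKFB3 -0.78, HIF1A 1.08, EPAS1 0.071, ARNT 0.77, VHL 0.62, EGLN1 1.51, VEGFA -0.87, CA9 -0.049, ADM -0.27, BNIP3 0.50, BNIP3L 1.48, P4HA1 -0.24, P4HA2 -0.25 and ANGPTL4 -0.19. With shctrl as the control the overexpression ratio changed sign for 21 of 38 members, those with R1A between the controls; of the members at least 2-fold apart from pcdh these were ENO1 -0.21, HIF1A -0.074, EGLN1 -0.15, NDRG1 -0.28 and ANGPTL4 0.63. The 2 knockdown libraries and the 2 controls thus decide the sign of many members. Shares of paralogs by expected counts in place of TPM moved by more than their spread over libraries for 6 of 13 families. Counts of named pseudogenes moved the overexpression ratio of LDHA only, of 14 members with such copies.

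No paired analysis was possible because the groups share fewer than 2 replicate numbers. Each control is 1 library, so the spread between control libraries of 1 vector system was not measured, and 6 members had a mean under 5 CPM, where counting error alone is large.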
